A study of Homo sapiens with 2 samples.

Results

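The chloride intracellular channel (CLIC) family was examined on the arrays of HCC4006 and HCC4006ER cells, with 6 genes (CLIC1 to CLIC6) of 19775 genes measured and 13 probe sets of 41097 that carried 1 gene symbol. The family was picked from these same signals, because CLIC3 was among the largest differences toward HCC4006ER cells, so its values are a description and no test was made on them. HCC4006 is a human NSCLC cell line that carries an exon 19 deletion of EGFR and is sensitive to the EGFR inhibitor erlotinib. HCC4006ER cells keep this deletion, are resistant to erlotinib and are labelled with an EMT phenotype. They came from HCC4006 cells exposed to erlotinib for 3 months, from 3 nM, with a later rise to 4 μM, and are a bulk population from which the single cell clones of the study were taken afterwards. The labels name no further treatment of either line, whether erlotinib was in the medium of HCC4006ER cells is not given in the sources used here, and RNA was taken after 48 hours in culture, with 3 preparations mixed into 1 array per cell line. The deposited values are MAS5 signals, a linear measure of probe brightness.

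Each cell line had 1 array, so there is no replicate error and no p-value is given. The array scaling gave trimmed means of 500.1 on both arrays, and the medians were 63.4 on the HCC4006-labelled array and 57.7 on the HCC4006ER-labelled array. Olfactory and bitter taste receptor genes, which these cells are not known to use, set a background level at the 95th percentile of their 127 probe sets, 96.2 and 91.6. A signal under this level is called not well above background, a fold against such a signal is computed against the level and given as "at least", and no fold is given where both signals lay under it. A gene is read from its brightest probe set, by mean log2 signal over both arrays. The paper's threshold of 1.5-fold is used throughout. The labels were checked against markers. The epithelial markers EPCAM, CDH1, KRT8, KRT18 and KRT19 were above background on both arrays and within 1.5-fold. VIM, CDH2 and FN1 were higher on the HCC4006ER-labelled array by log2 folds of 0.61, 1.03 and 0.73. By contrast, the brightest of 4 ZEB1 probe sets by mean log2 signal read 42.5 and 53.1, not well above background on either array. This choice can pass over a probe set that is bright on 1 array only, and the other ZEB1 probe sets are not given here. E-cadherin (CDH1) read 10469 and 11041 and was thus not lower on the array labelled with the EMT phenotype, and the arrays are named here by their labels. SNAI2, another EMT transcription factor gene, read 3377 and 3556 (log2 fold 0.07), within 1.5-fold. Thus VIM, CDH2 and FN1 went with the EMT label. The epithelial markers, CDH1 among them, and the ZEB1 probe set read here did not show an EMT pattern. Whether each array holds the RNA that its label names was not tested beyond these markers. The direction of every fold rests on the labels. Of 6 fibroblast markers, 1 was above background on the HCC4006-labelled array and 0 on the HCC4006ER-labelled array, with summed signals of 349.5 and 224.8. Of 4 leukocyte markers, 2 and 1 were above background (PTPRC on neither), with summed signals of 399 and 325. Of 3 endothelial markers, 1 was above it on each array (VWF and CDH5 on neither), with summed signals of 268 and 260. The leukocyte marker CD79A read 198 and 229 and the endothelial marker PECAM1 read 244 and 229, above background on both arrays. The CLIC2 and CLIC5 signals above background, described below, are of similar size or lower. In bulk RNA, a change in the number of expressing cells and a change in RNA per cell cannot be told apart.

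CLIC proteins are small proteins with the fold of the omega class glutathione transferases. They exist both as soluble cytosolic proteins and in membranes, and whether all of them act as chloride channels in cells is debated. CLIC1 and CLIC4 are widely expressed and are linked to actin, endosomes and, for CLIC4, TGF-β signalling. CLIC3 is known in carcinoma cells for a late endosomal route that returns integrins to the cell surface together with RAB25, and as a secreted oxidoreductase that acts on the transglutaminase TGM2. CLIC5 binds ezrin and radixin at the apical actin of podocytes and hair cells, CLIC2 is an inhibitor of ryanodine receptors and CLIC6 has been found with dopamine receptors.

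The sequences just upstream of 3 family members are given first, since their genes span the differences found here: CLIC3 and CLIC4 with the higher signals on the HCC4006ER-labelled array and CLIC2 with the lower one. Each is the 250 bases before the RefSeq start on the assembly GRCh38.p14, written 5′ to 3′ on the gene's own strand. The windows are chr9:136996569-136996818 on the minus strand for CLIC3, chr1:24745197-24745446 on the plus strand for CLIC4 and chrX:155334615-155334864 on the minus strand for CLIC2, and none overlaps an annotated gene. Capitals mark the letters CAGAC or GTCTG, the SMAD-type element, and CAGGTG or CACCTG, the E-box that ZEB1 binds, searched on both strands.
CLIC3: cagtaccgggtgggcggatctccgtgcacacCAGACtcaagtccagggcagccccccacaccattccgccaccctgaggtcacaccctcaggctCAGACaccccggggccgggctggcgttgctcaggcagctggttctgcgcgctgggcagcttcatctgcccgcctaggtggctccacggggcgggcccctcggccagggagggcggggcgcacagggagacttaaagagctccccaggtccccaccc
CLIC4: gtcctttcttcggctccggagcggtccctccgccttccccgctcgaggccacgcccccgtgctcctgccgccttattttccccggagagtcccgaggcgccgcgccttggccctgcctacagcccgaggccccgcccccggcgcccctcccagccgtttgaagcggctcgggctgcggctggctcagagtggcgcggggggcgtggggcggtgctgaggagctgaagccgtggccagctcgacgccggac
CLIC2: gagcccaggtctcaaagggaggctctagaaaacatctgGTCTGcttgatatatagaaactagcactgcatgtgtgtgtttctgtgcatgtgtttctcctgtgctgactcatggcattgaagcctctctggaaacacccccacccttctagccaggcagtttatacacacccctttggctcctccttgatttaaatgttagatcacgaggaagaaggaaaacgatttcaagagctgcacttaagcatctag

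The 3 windows differ in composition. CLIC4 has 30 CG dinucleotides in a window of 74.8% G and C, more than 87.6% of all 35116 RefSeq windows of the same length, CLIC3 has 15 (70.4% G and C) and CLIC2 has 2 (46.4% G and C). The median over all windows was 11. The SMAD-type letters occur in the CLIC3 window 2 times and in the CLIC2 window 1 time, and in 38.0% of all windows. The ZEB1-type letters occur in none of the 3 printed windows and in 17.5% of all windows. These matches describe the letters alone. For CLIC1 and CLIC5 the table's windows lie partly within annotated genes and are not printed, and CLIC6 was not matched. The window of CLIC1 holds neither motif, and of the 3 CLIC5 windows the outermost holds 1 of each and the others hold neither.

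CLIC3, CLIC4 and CLIC5 were higher past 1.5-fold on the HCC4006ER-labelled array, CLIC2 was lower, CLIC1 was nearly equal and CLIC6 did not exceed background on either array. Thus 4 of the 5 family members above background on at least 1 array lay past 1.5-fold, where 19.1% of all 11896 genes above background did. In the higher direction these were 3 genes against a background of 7.99%, and in the lower direction 1 gene against 11.2%. Because the family was chosen for its largest member in this same contrast, nothing is read from these shares. When both arrays are scaled to the same median, every log2 fold moves up by 0.14, and 12.4% of all genes are higher and 7.40% lower. The median log2 fold over the 5 CLIC genes was 0.70, and -0.04 over all genes above background. This family median is CLIC5 at its bound in probe set 213317_at, and the other CLIC5 probe set above background gave a bound of 0.57. Since CLIC3 is 1 of the 5, nothing is read from the family median either.

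**Figure D1:**
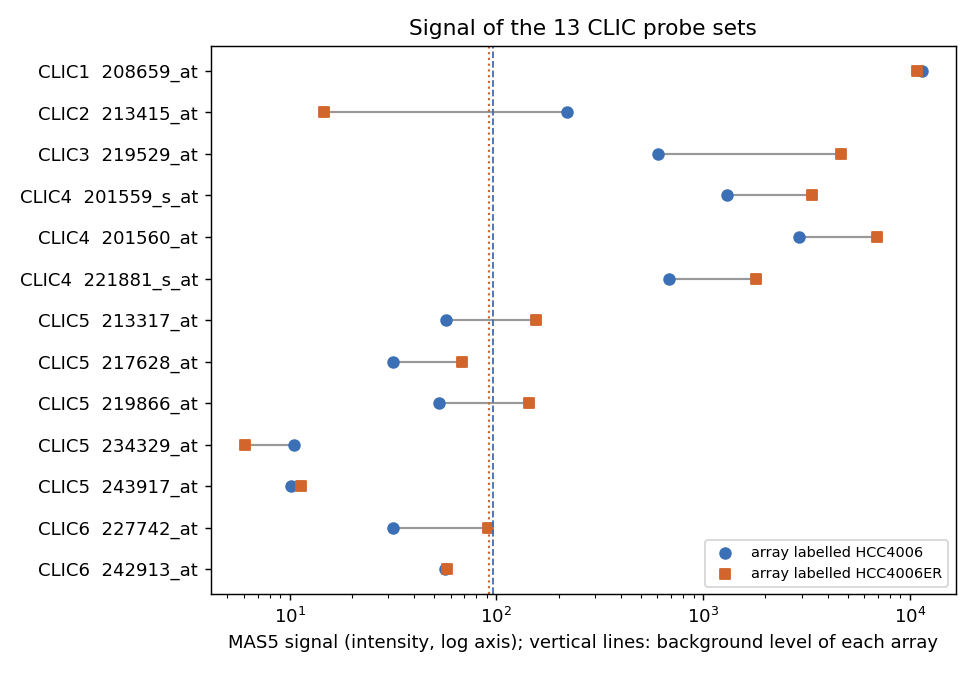
MAS5 signal (log axis) of the 13 probe sets of CLIC1 to CLIC6, with circles for the HCC4006-labelled array and squares for the HCC4006ER-labelled array; the dashed and dotted lines are the background levels of 96.2 and 91.6. The squares of CLIC3 and of all 3 CLIC4 probe sets lie to the right of their circles and clear of background, the points of CLIC1 nearly coincide, and the square of CLIC2 lies under background.

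CLIC3 read 602 on the HCC4006-labelled array and 4638 on the HCC4006ER-labelled array, both well above background. This is a 7.70-fold higher signal, a log2 fold of 2.94, and the 11th rank of higher genes among the 11896 above background, with genes not well above it on 1 array ranked at their bound. Over the 10849 genes above background on both arrays, 8 had a larger log2 fold toward HCC4006ER cells. The gene has a single probe set (219529_at), so no other probe set can be set beside it. For scale, where 5264 genes had several probe sets above background on both arrays, their log2 folds scattered within a gene by 0.27 (pooled SD), a figure that holds no variation between arrays or cultures. The genes with the most similar log2 folds among those above background on both arrays, over the 2 arrays only, were L1CAM (an adhesion molecule, 2.98), SPARC (a matrix glycoprotein, 3.03), CADM1 (a cell adhesion molecule, 2.84), INHBA (an activin subunit, 3.17) and SHISA9 (2.69).

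CLIC4 was above background in all 3 of its probe sets on both arrays and differed the same way in each. Probe set 201560_at, the brightest, read 2894 on the HCC4006-labelled array and 6941 on the HCC4006ER-labelled array, a 2.40-fold higher signal. Probe set 201559_s_at read 1299 and 3369, and 221881_s_at read 684 and 1800, with folds of 2.59 and 2.63. The 3 log2 folds lay between 1.26 and 1.40, with a mean of 1.34 ± 0.072 (SD between probe sets, n = 3). Of 2208 genes with at least 3 probe sets above background on both arrays, 60 (2.72%) had all of them higher past 1.5-fold, and CLIC4 was among these. The log2 fold of CLIC3 exceeded that of the brightest CLIC4 probe set by 1.68.

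CLIC2 went the other way. Its probe set (213415_at) read 220 on the HCC4006-labelled array and 14.6 on the HCC4006ER-labelled array, the latter not well above background. Measured against the background level it was at least 2.40-fold lower on the HCC4006ER-labelled array, a log2 fold of -1.26. The measured ratio of 15.0 rests on a signal among those of receptor genes and is not taken as its size. With the background set at the 99th percentile of the receptor probe sets, the log2 fold was -0.43, within 1.5-fold.

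CLIC5 was dim. Probe set 213317_at read 57.2 and 156, and 219866_at read 52.9 and 143, above background on the HCC4006ER-labelled array and not well above it on the HCC4006-labelled array. Both probe sets were thus higher there, at least 1.62-fold and at least 1.49-fold, so that the second fell just inside the threshold. Their measured log2 folds were 1.45 and 1.44, a difference of 0.01. The 3 other CLIC5 probe sets were not well above background on either array and read 31.6, 10.5 and 10.1 on the HCC4006-labelled array against 67.8, 6.05 and 11.3. Averaged over all 5 probe sets, with the 3 under background entered as 0, the log2 fold of CLIC5 was 0.25 and the gene no longer passed 1.5-fold, and at the 99th percentile background no CLIC5 signal was above the level.

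CLIC1 was nearly equal, at 11397 on the HCC4006-labelled array and 10773 on the HCC4006ER-labelled array (log2 fold -0.08 in its single probe set). With both arrays at the same median the sign turned, at 0.05. CLIC6 read 56.5 and 57.4 in probe set 242913_at, and 31.5 and 91.1 in 227742_at. The highest of these, on the HCC4006ER-labelled array, lay just under the background level of 91.6, so no fold is given for CLIC6. Over the family, 8 of 13 probe sets were above background on at least 1 array. Of the 8, 6 lay past 1.5-fold, where 19.4% of all probe sets above background did. The 6 include that of CLIC3, for which the family was picked, and 3 of the single gene CLIC4, so nothing is read from this share.

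**Figure D2:**
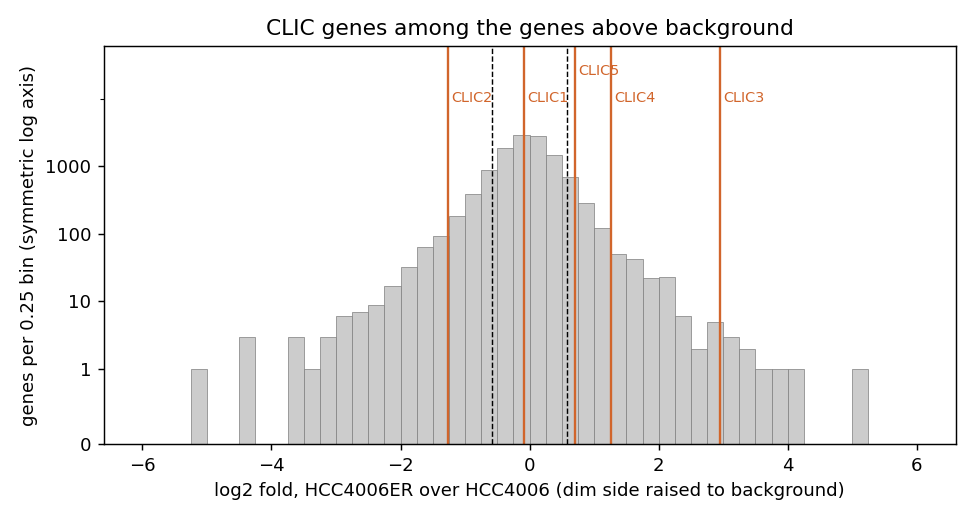
Number of genes per bin of log2 fold (symmetric log axis) for the 11896 genes above background, with the 5 CLIC genes as vertical lines and 1.5-fold as dashed lines. CLIC3 at 2.94 lies in the sparse right tail, CLIC4, CLIC5 and CLIC2 lie outside the dashed lines and CLIC1 at -0.08 lies in the centre.

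The folds of CLIC3, CLIC4 and CLIC1 depended little on how the signals were treated. With 8 other ways of treating the signals beside the one reported, the log2 fold of CLIC3 ran from 2.84 to 3.08, that of CLIC4 from 1.25 to 1.40 and that of CLIC1 from -0.08 to 0.05. For CLIC2 and CLIC5, each with a signal not well above background on 1 array, it ran from -3.91 to -0.43 and from 0.25 to 1.45. The ends for CLIC2 were the measured ratio and the background at the 99th percentile, and those for CLIC5 were the mean over its probe sets and the measured ratio.

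**Figure D3:**
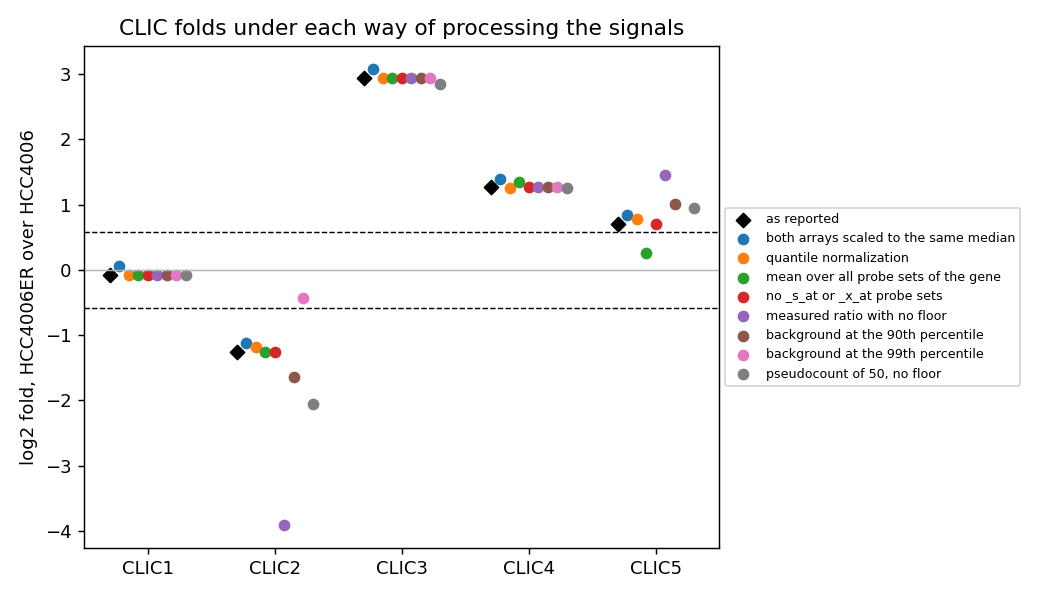
Log2 fold of the 5 CLIC genes above background (y axis) as reported (black diamonds) and under 8 other ways of treating the signals (coloured circles), with dashed lines at 1.5-fold. The points of CLIC3, CLIC4 and CLIC1 lie close together, those of CLIC2 spread from -3.91 to -0.43 and those of CLIC5 from 0.25 to 1.45, with no CLIC5 point at the 99th percentile background.

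Genes known to work with CLIC proteins or related to them were described from 7 lists, which held 143 entries, 133 with a probe set of 1 symbol and 108 above background. Of the 108, 91 lay within 1.5-fold, 10 were lower and 7 were higher past it, with those not well above background on 1 array counted at their bound. The list medians lay between -0.07 and 0.08, near the -0.04 of all genes above background. The share past 1.5-fold ran from 0% to 28.0% over the lists, beside the 19.1% of all genes. Among list members above background on both arrays the largest difference was that of GSTO2, with a log2 fold of 1.89. That of CLIC3 was larger, but CLIC3 was picked for its large difference, so nothing is read from this. Members above background on only 1 array have a bound and were not ranked.

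Of 18 genes of the CLIC3 recycling route and its cargo above background, 2 were higher and 1 was lower. RAB11FIP1, a RAB11 family effector that recycles integrins, read 1015 on the HCC4006-labelled array and 2026 on the HCC4006ER-labelled array (log2 fold 0.998, and 0.46 and 0.95 in its other 2 probe sets). The integrin subunit ITGAV read 2156 and 3646, a log2 fold of 0.76. TGM2, the transglutaminase on which secreted CLIC3 acts, went down from 7397 to 3282, a 2.25-fold lower signal, and its 2 other probe sets above background gave log2 folds of -1.41 and -1.33. RAB25, the small GTPase of the CLIC3 route, read 5404 and 3629 (log2 fold -0.57) and lay just inside the threshold. The fibronectin receptor subunits ITGA5 and ITGB1 had log2 folds of -0.20 and 0.18, and the membrane protease MMP14, another CLIC3 cargo, had one of -0.34. Members of the route above background on both arrays had smaller log2 folds than the 2.94 of CLIC3. Because CLIC3 was picked for its large difference, nothing is read from this.

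Of 18 genes of the ezrin, radixin and moesin (ERM) group and actin partners above background, 2 were higher and 0 were lower. DIAPH3, the formin mDia2, read 2253 and 3935 (log2 fold 0.80, and 0.75 in its other probe set above background). MYO6, an unconventional myosin found with CLIC5 in hair cells, read 2074 and 3353 (0.69), with its other 2 probe sets at 1.37 and 0.44. The ERM genes EZR, RDX and MSN themselves had log2 folds of 0.19, -0.09 and -0.04, and RHOA had one of 0.01. All 18 genes listed for CLIC4 in TGF-β signalling, which include ligands and receptors of the pathway, lay within 1.5-fold. Their ends were TGFB2 at -0.39 and HIVEP1, a schnurri family zinc finger gene, at 0.56, and SMAD2, SMAD3 and SMAD4 had log2 folds of -0.06, -0.23 and 0.04. With both arrays at the same median 1 of these genes passed 1.5-fold, and 1 did without the _s_at and _x_at probe sets. Of 8 ryanodine and dopamine receptor genes, the receptor families listed for CLIC2 and CLIC6, 7 were not well above background on either array. DRD2 read 172 and 170.

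In the list of glutathione transferases and related genes, 1 of 16 above background was higher and 2 were lower. The 16 include GSTK1, PTGES2, GDAP1 and VARS1, and not all of them share the fold of CLIC proteins. GSTO2, of the omega class closest to the CLIC fold, read 205 on the HCC4006-labelled array and 758 on the HCC4006ER-labelled array, a 3.70-fold higher signal. A second GSTO2 probe set, at 48.0 and 61.9, did not exceed background. The omega gene GSTO1 read 5368 and 7671 (log2 fold 0.52), within the threshold. GSTM2 and GSTM1 were lower, with log2 folds of -0.94 and -0.63. Their probe sets carry the _x_at suffix of probes that match several transcripts, so the near-identical GSTM genes cannot be told apart. In the glutaredoxin, thioredoxin and glutathione synthesis list, 2 of 12 were lower: GCLM, the modifier subunit of the first enzyme of glutathione synthesis, went from 5651 to 2722 (log2 fold -1.05) and the glutaredoxin GLRX from 1191 to 595. Of the 2 other GCLM probe sets, 1 was lower past 1.5-fold (-1.18) and the other lay within it (-0.40), as did the other GLRX probe set (-0.57).

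Of 25 other chloride channels and subunits above background, 5 lay past 1.5-fold on the lower side and 2 on the higher. This count of 7 was 3 with the mean over probe sets and 11 with the measured ratio. The calcium-activated channel genes BEST1 and ANO1 were lower on the HCC4006ER-labelled array, BEST1 from 306 to a signal not well above background of 52.3 (at least 3.34-fold) and ANO1 from 279 to 56.4 (at least 3.04-fold). The 2 other BEST1 probe sets were not well above background on either array. LRRC8C, a volume-regulated channel subunit, CLCC1, an intracellular channel gene, and CLCN5, an endosomal exchanger, were lower with log2 folds of -0.71, -0.69 and -0.68. A further probe set each of CLCC1 (-0.31), CLCN5 (at its bound, -0.50) and LRRC8C (at its bound, -0.38) lay within 1.5-fold. OSTM1, the subunit of the lysosomal exchanger CLCN7, was higher at 0.71 and ANO2 was at least 1.53-fold higher. CFTR, at 10.7 and 16.6, did not exceed background. CLCN7 and the volume channel subunit LRRC8A had log2 folds of -0.08 and 0.50.

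**Figure D4:**
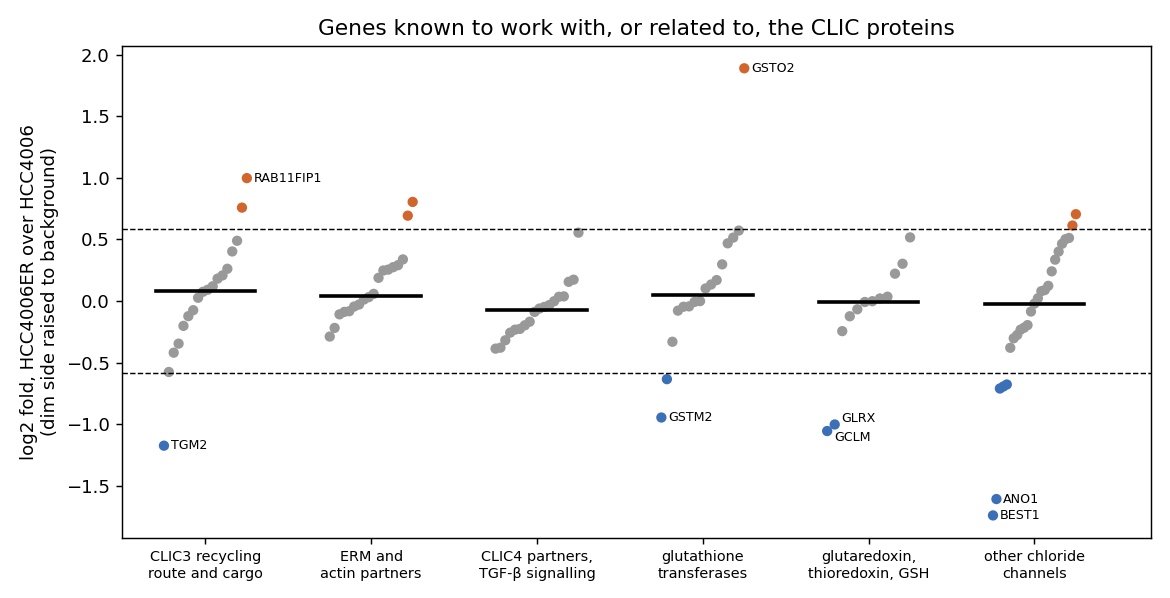
Log2 fold (y axis) of the genes above background in 6 lists of CLIC partners and relatives; each point is 1 gene, orange past 1.5-fold higher, blue past 1.5-fold lower, the black bar is the list's median, with 1.5-fold drawn as dashed lines. The medians lie near 0, and GSTO2 at 1.89 is the highest point while BEST1 at -1.74 and ANO1 at -1.61, both drawn at their bound, are the lowest.

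The genes next to each CLIC gene were examined, since the 6 lie on 5 chromosomes. Of the 36 neighbours (3 on each side in the order of GRCh38.p14), 17 had a probe set of 1 symbol and 9 were above background, of which 1 was higher, 3 were lower and 5 lay within 1.5-fold, where 7.99% of all genes were higher and 11.2% lower. On either side of CLIC3, the DNA repair factor gene PAXX went from 656 to 373 (log2 fold -0.81) and the transporter gene ABCA2 from 229 to 300 (0.39), so the difference of CLIC3 was not shared by them. The neighbours of CLIC4 above background, the splicing gene SRRM1 and the transcription factor gene RUNX3, had log2 folds of 0.12 and 0.13. ENPP4, a membrane phosphodiesterase gene near CLIC5, was 2.92-fold higher, from 197 to 576, and a second ENPP4 probe set went from 32.6, not well above background, to 155. The upstream window of the outermost CLIC5 start overlaps the annotated ENPP4 gene. The calcineurin inhibitor gene RCAN1 beside CLIC6 was 2.13-fold lower, and DDAH2 beside CLIC1 was 1.83-fold lower. The neighbours of CLIC2 above background, BRCC3 and VBP1, had log2 folds of -0.02 and 0.22.

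**Figure D5:**
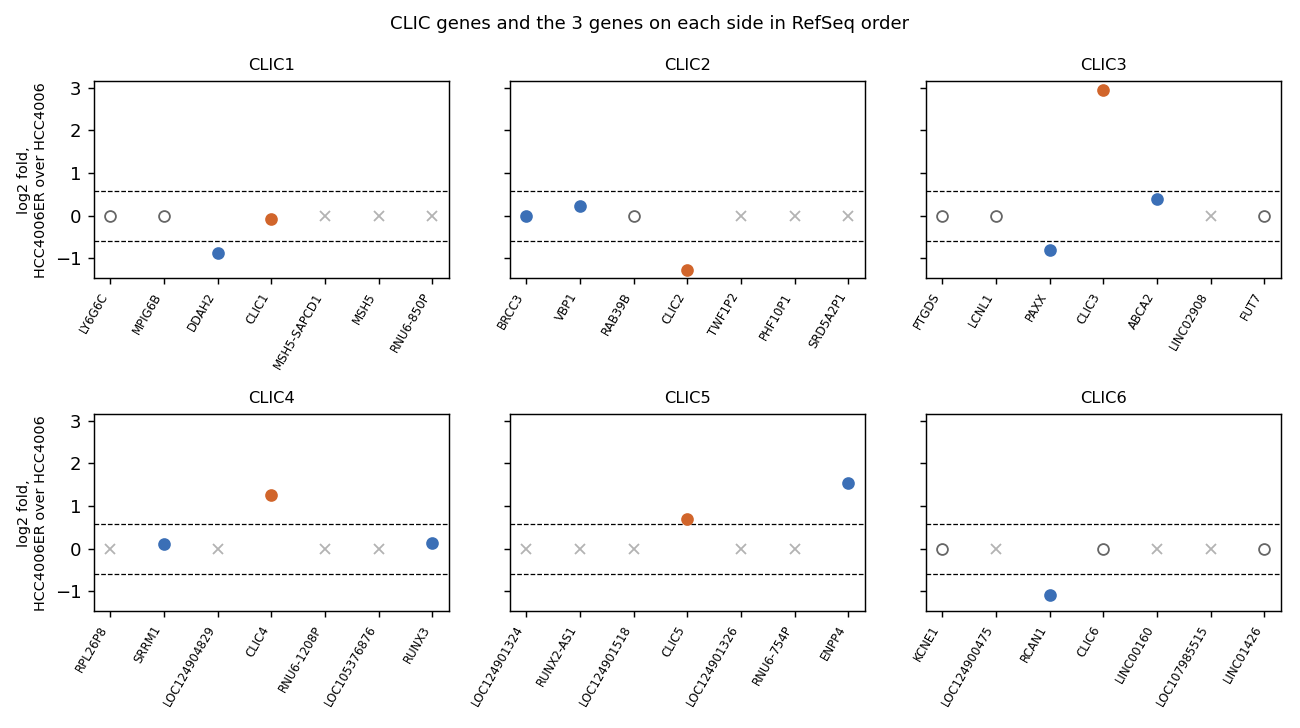
Log2 fold (y axis) of each CLIC gene (orange) and of the 3 genes on each side of it in RefSeq order (blue), 1 panel per CLIC gene. Open circles mark genes not well above background on either array, which have no fold and are drawn at 0, and crosses mark genes with no probe set of 1 symbol; the neighbours of CLIC3 and CLIC4 do not share their difference, and ENPP4 near CLIC5 lies at 1.55.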

How the data were processed

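For each of the cell lines HCC4006 and HCC4006ER, pooled RNA was hybridized to 1 Affymetrix HG-U133 array. The authors deposited signal intensity values made with MAS5, per the labels with GCOS 1.4, on a linear scale and with no detection calls. The scaling evens out the trimmed means of the arrays and leaves their medians apart by 0.14 in log2. Both medians lie under the background levels. Of 54675 probe sets, 41097 had 1 gene symbol in the platform annotation, 1801 had several and 11777 were not listed; the latter groups were not used. Symbols were updated through gene identifiers in a RefSeq table (GRCh38.p14), and upstream sequences are RefSeq's. The log2 fold compares the HCC4006ER-labelled with the HCC4006-labelled array (positive where the former is brighter), with a dim side raised to the background level. The number of arrays limits the precision and no test was made.

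Named were all CLIC genes, list members past 1.5-fold and up to 4 further members, the 5 genes nearest to CLIC3 by log2 fold and RefSeq neighbours. CLIC members, lists and motifs were chosen with earlier results of these data known, and in some lists more than 4 further members are named. The fold calculation was tested on simulated data, with known folds set only in genes well above background on both arrays. The bounds given for dim signals were thus not tested with known folds. Analyses ran in Python 3.11.15 (pandas 2.3.3, numpy 2.4.6, scipy 1.17.1) and plots were drawn with matplotlib 3.10.9.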

Additional observations from a re-analysis of the deposited data

How the results depend on the processing

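The log2 folds of CLIC3 and CLIC4 kept their direction and stayed past 1.5-fold under quantile normalization, median scaling, both other ways to choose probe sets, the measured ratio, other background levels, a pseudocount of 50 and a 2-fold threshold. CLIC2 was within 1.5-fold with the background at the 99th percentile (-0.43), where 2 CLIC genes passed, with 0 lower; CLIC5 then had no signal above the level. CLIC5 did not pass when averaged over its probe sets (0.25, with the 3 under background entered as 0) or at a 2-fold threshold (0.70). The share of all genes past the threshold was 12.8% with the mean over probe sets, 5.94% at 2-fold, where 6 list members passed in place of 17, and 36.0% with all genes by the measured ratio, where 35 list members did. With both arrays at the same median, 37.4% of the genes past 1.5-fold were lower in place of 58.3%. CLIC6, read from 242913_at, had a value only by the measured ratio without a filter, a log2 fold of 0.02. Its other probe set, 227742_at, had a measured log2 fold of 1.53, with both signals under background. With 1 array per cell line no array could be left out. No paired analysis was possible because there were no replicate arrays to pair. Signals under background, as for CLIC2 and CLIC5 on 1 array each, limit these folds to bounds.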
